A study of Saccharomyces cerevisiae with 8 samples.

Results

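Residual sites of Pho92 are stretches of meiotic RNA that were strongly bound by this m6A reader and kept a weak but listed peak when the m6A writer IME4 was mutated. Peaks that touched on the same strand in the lists of 4 libraries, 2 of Pho92-HTP and 2 of Pho92-HTP in an ime4 mutant, were merged into 105079 regions. A region's value in a library was the sum of its normalized h2w scores, the peak score of the deposited lists, or 0 where no peak was listed. Of these regions, 864 had a score above 0.9 in both Pho92-HTP libraries, and 822 of them lay outside contig NCSL01000092.1. At 607 of the 822, the score was at most 0.9 in both ime4 mutant libraries. The residual sites were the 277 of the 607 with a score of at least 0.02 in at least 1 mutant library. The other 330, below 0.02 in both, are called lost sites here, and 195 further regions above 0.9 in all 4 libraries are called kept sites. The value 0.9 is the limit above which the authors counted peaks, per the file headers. Without the spike-in scaling, 128 regions met the rule.

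Pho92-bound RNA was recovered by CRAC, in which RNA is crosslinked to a tagged protein by UV light, purified with it under denaturing conditions and sequenced. All groups were diploid SK1 budding yeast in meiosis, a background that sporulates readily, in which a promoter switched on by copper (pCUP-IME1) drives IME1, the transcription factor that starts meiosis. The cells had received 50 μM copper sulfate and were collected 5 h after transfer to SPO, 3 h after the copper. The groups, each of 2 libraries that the series text calls biological replicates, were Pho92-HTP, Pho92-HTP in the ime4 mutant, Pho92-HTP without UV, and wild type without the HTP tag. The Pho92-HTP, ime4 mutant and untagged cells were irradiated at 254 nm for 80 s. Every sample also received the same amount of crosslinked fission yeast with Luc7-HTP, against which the authors scaled the libraries. The labels call the allele only an ime4 mutant, and the lists name it a knockout. Every library thus came from a single strain background at a single time.

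N6-methyladenosine (m6A) is a methyl mark that a methyltransferase with the catalytic subunit Ime4, the yeast relative of human METTL3, places on messenger RNA during meiosis. Proteins with a YTH domain hold the methylated base in an aromatic pocket, and Pho92 is the YTH protein of budding yeast. Ime4 activity promotes entry into meiosis, and Pho92 has been linked to the translation and decay of methylated transcripts.

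The lists held 66344 and 41604 peaks for Pho92-HTP, 47377 and 60778 for the ime4 mutant, and between 2138 and 2925 for each control library. From the values, the score equals the squared height of a peak divided by its width, so a 10-fold lower height gives a 100-fold lower score. Height in read equivalents was worked out from this formula. Summed heights over all listed peaks came to 1.29e+06 to 2.87e+06 read equivalents in the 4 irradiated Pho92-HTP libraries, 334161 and 421065 without UV and 35058.3 and 53222.7 in the untagged cells. At the limit of 0.9, a peak 32 nt wide stood for 202 and 82.9 read equivalents in Pho92-HTP replicates 1 and 2, and for 153 and 201 in the mutant. The limit of 0.02 stood for 22.9 and 30.0 read equivalents in the mutant libraries. Each site thus sat above the smallest listed peaks in at least 1 mutant library, but not always in both. Total reads per library are unknown, and no counting error could be attached to a peak.

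The 277 sites were spread over 60 contigs, with 145 on the plus strand and 132 on the minus strand. Contigs NCSL01000032.1, NCSL01000008.1 and NCSL01000001.1 held the most, with 16, 15 and 14. The merged regions were 27 to 144 nt long with a median of 52 nt, close to the 50 nt of lost sites and longer than the 35 nt of kept sites. Genome sequence and gene annotation of these contigs were not used here, so sites are given by contig, strand and the positions in the lists.

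The sites were chosen by their scores in the Pho92-HTP and ime4 mutant libraries, which are therefore given as a description, with no test. In Pho92-HTP the site scores ran from 0.907 to 18244 with a median of 5.49 in replicate 1, and from 0.903 to 8498 with a median of 5.03 in replicate 2. In the ime4 mutant they ran from 0 to 0.874 with a median of 0.0932 in replicate 1, and from 0 to 0.861 with a median of 0.0676 in replicate 2. The median site thus stood for 511 and 205 read equivalents in Pho92-HTP, while the mutant had 47.8 and 57.8. A mutant peak was listed at 265 sites in replicate 1, at 261 in replicate 2 and at 249 in both. The lower limit of 0.02 was met in both mutant libraries at 181 sites, in replicate 1 alone at 43 and in replicate 2 alone at 53.

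**Figure D1:**
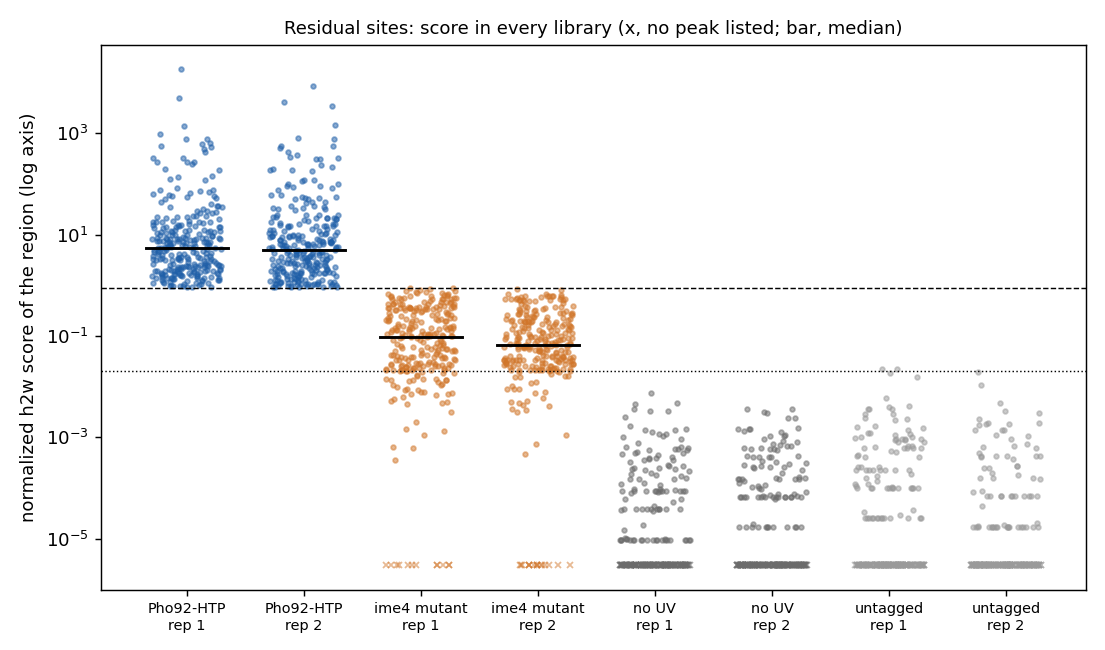
Normalized h2w score (log axis) of each of the 277 residual sites in each of the 8 libraries, with a bar at the median and crosses where no peak was listed. Medians were 5.49 and 5.03 with IME4, 0.0932 and 0.0676 without IME4, and 0 in all 4 control libraries.

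As a share of the Pho92-HTP summit height, which puts the score back on a scale linear in reads, the sites kept a median of 9.96% in the mutant, with quartiles of 5.42% and 19.4%. The range was 0.511% to 90.0%. Lost sites kept a median of 1.44% and kept sites 108%, an order that the choice of the groups fixes. At most 5% of the height remained at 62 sites (22.4%), 5% to 10% at 77 sites (27.8%) and 10% to 20% at 71 sites (25.6%). Between 20% and 50% remained at 52 sites (18.8%), and more than 50% at 15 (5.42%). Since the mutant score is capped, the rule also ties these bands to strength in Pho92-HTP. Median Pho92-HTP scores were 42.1 and 49.9 where at most 5% remained, and 1.64 and 1.47 where more than 50% remained.

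The rule held the mutant score at or below 0.9 and left the Pho92-HTP score open above, so the following values describe the chosen sites and show no relation between the groups. When the sites were ordered by their mean Pho92-HTP score and cut into groups of 92, 92 and 93, the Pho92-HTP medians were 1.71, 5.46 and 27.6 in replicate 1. The mutant medians of the same groups were 0.135, 0.0538 and 0.101 in replicate 1, and 0.0720, 0.0522 and 0.0846 in replicate 2. The median height kept was 22.0%, 10.8% and 4.04%. Across the 277 sites, Spearman's rho between the mean Pho92-HTP score and the mean mutant score was 0.0212, over points that share libraries and were chosen within these limits.

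**Figure D2:**
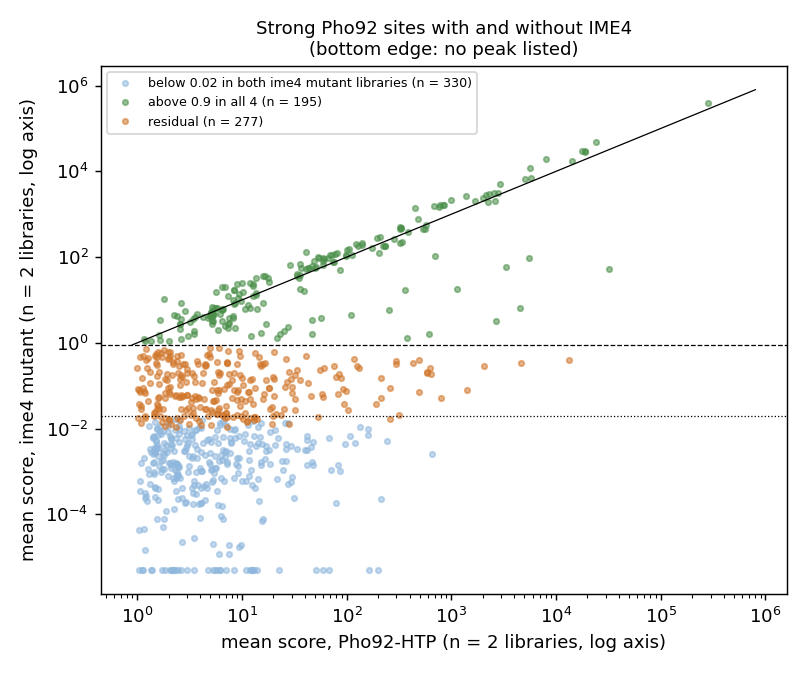
Mean score in the 2 ime4 mutant libraries against that in the 2 Pho92-HTP libraries (log axes) for residual sites (n = 277), lost sites (n = 330) and kept sites (n = 195), each point being 1 region. The rule sets the edges of each class: residual sites lie at or below 0.9 in the mutant, and their Pho92-HTP scores reach 18244 and 8498 at the strongest site.

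Of the 6 strongest residual sites in Pho92-HTP, 3 were also among the 6 that kept least of their height, a coincidence that the cap on the mutant score favours. The strongest, at NCSL01000001.1 from 130681 to 130716 on the plus strand, had scores of 18244 and 8498 in Pho92-HTP, while the mutant had 0.588 and 0.194. Its summit stood for 28276 and 7931 read equivalents in Pho92-HTP, while the mutant had 118 and 87.4, or 0.511% of the height after scaling. The same site was among the 4 highest without UV, at 0.00481 and 0.00313, or 26.4 and 16.9 read equivalents, and had 0.00411 and 0.000377 in the untagged cells. Both mutant scores lay above all 4 control values and far below both Pho92-HTP values.

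The next strongest, at NCSL01000066.1 from 24130 to 24163 on the plus strand, had 4973 and 4232 in Pho92-HTP, while the mutant had 0.330 and 0.344, and kept 0.829%. It had a peak of 0.000589 in the first library without UV, none in the second, and 0.00136 and none in the untagged cells. At NCSL01000055.1, 18643 to 18723 on the minus strand, the Pho92-HTP replicates differed, with 644 and 3443, and the mutant had 0.363 and 0.205. The replicates were close at NCSL01000005.1, 207785 to 207841 on the plus strand, with 1404 and 1432 in Pho92-HTP, while the mutant had 0.103 and 0.0573. NCSL01000022.1 at 141289 to 141328 and NCSL01000002.1 at 433488 to 433522, both on the plus strand, completed the strongest 6, and kept 0.814% and 1.56%. The lowest shares kept also belonged to NCSL01000035.1 at 9663 to 9708 (0.623%), NCSL01000018.1 at 219701 to 219736 (0.785%) and NCSL01000027.1 at 79098 to 79182 (0.839%), all on the minus strand.

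At the site with the highest mutant mean, NCSL01000030.1, 131516 to 131577 on the plus strand, Pho92-HTP had 6.71 and 5.37 and the mutant 0.854 and 0.675, and 44.8% of the height was kept. No UV gave 9.46e-06 and no peak there, and the untagged cells 0.00217 and 6.81e-05. NCSL01000006.1, 64662 to 64702 on the minus strand, had 5.59 and 4.42 in Pho92-HTP, while the mutant had 0.874 and 0.622, and kept 41.9%. The mutant libraries reached 206 and 226 read equivalents at the former site and 167 and 187 at the latter, where the highest control peak stood for 16.5. Among the 8 sites with the highest mutant mean, Pho92-HTP scores ranged from 1.04 to 11.6.

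The largest share was kept by NCSL01000036.1 at 67757 to 67853 on the minus strand, with 1.64 and 1.73 in Pho92-HTP, while the mutant had 0.367 and 0.790, or 90.0%. NCSL01000039.1 at 54194 to 54234 on the minus strand kept 79.4%, with 1.10 and 1.34 in Pho92-HTP, while the mutant had 0.866 and 0.553. NCSL01000002.1 at 389557 to 389622 on the minus strand kept 77.5%, with 1.29 and 0.986 in Pho92-HTP, while the mutant had 0.476 and 0.539. With the mutant score capped at 0.9, only sites with low Pho92-HTP scores can keep such shares.

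The values nearest to each limit were as follows. At the Pho92-HTP limit, NCSL01000013.1 at 178335 to 178420 was inside with 5.74 and 0.903 and kept 7.69% of its height, and NCSL01000010.1 at 222253 to 222291 was outside with 0.891 and 0.975 and kept 25.4%. At the mutant limit of 0.9, NCSL01000006.1 at 64662 was inside with 0.874 and 0.622, and NCSL01000027.1 at 15910 to 15955 outside with 0.926 and 0.331. At the limit of 0.02, NCSL01000009.1 at 234537 to 234592 was inside with 0.0203 and 0.02004, and NCSL01000020.1 at 167578 to 167647 was a lost site with 0.00308 and 0.01996.

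Replicates are compared here only as a description, because the rule asked for a high score in both Pho92-HTP libraries but for 0.02 in only 1 mutant library, which admits unequal mutant pairs. The Pho92-HTP scores of a site differed by a median ratio of 1.58, and by at most 2-fold at 198 of 277 sites. Mutant scores differed by a median ratio of 2.07 at the 249 sites listed in both, and by at most 2-fold at 117. Spearman's rho between replicates was 0.852 for Pho92-HTP (n = 277) and 0.673 for the mutant over the 249 sites. The mutant peaks also stood for fewer read equivalents at these sites, as given above, and the part of this in the spread was not tested.

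Where within a site the peak sat was not used to choose the sites, beyond the merging of touching peaks. In Pho92-HTP the centres of the highest peak of a site, in the 2 replicates, lay a median of 1 nt apart, and within 2 nt at 225 of 277 sites (81.2%). Mutant replicates lay a median of 7 nt apart over 249 sites, with 68 (27.3%) within 2 nt. Between Pho92-HTP replicate 1 and the mutant the median distance was 8 nt for replicate 1 (n = 265) and 7 nt for replicate 2 (n = 261), with 21.9% and 21.1% within 2 nt. Most mutant centres thus lay more than 2 nt from the Pho92-HTP centre, and about as far from each other as from it. At lost sites the mutant replicates lay a median of 12 nt apart (n = 201). There they lay 11 nt from Pho92-HTP replicate 1 in each mutant library (n = 237 and 256). Whether low peaks have less certain centres, and what part this has in these distances, was not tested. Kept sites had a median of 1 nt for every pair of libraries, and the 785 tested regions listed in both mutant libraries had 4 nt between them, tested regions being the 961 above 0.9 in at least 2 of the 4 libraries.

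Weak regions were measured too, as a description. The 3700 regions with scores of 0.02 to 0.9 in both Pho92-HTP libraries, with medians of 63.3 and 26.5 read equivalents, had centres a median of 3 nt apart. The 1119 regions in the same score range in both mutant libraries and at most 0.9 in Pho92-HTP had 6 nt. Their medians were 43.4 and 55.8 read equivalents. The 3700 regions had no limit on their mutant scores, so the 2 sets were chosen differently. Residual sites with both mutant scores between 0.1 and 0.9 (n = 88) had 5 nt between the mutant replicates, and those between 0.02 and 0.1 (n = 52) had 8 nt. The mutant centre lay on neither side of the Pho92-HTP centre by preference. In mutant replicate 1 it was toward the 3′ end at 127 sites and toward the 5′ end at 124, and in replicate 2 at 122 and 128.

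**Figure D3:**
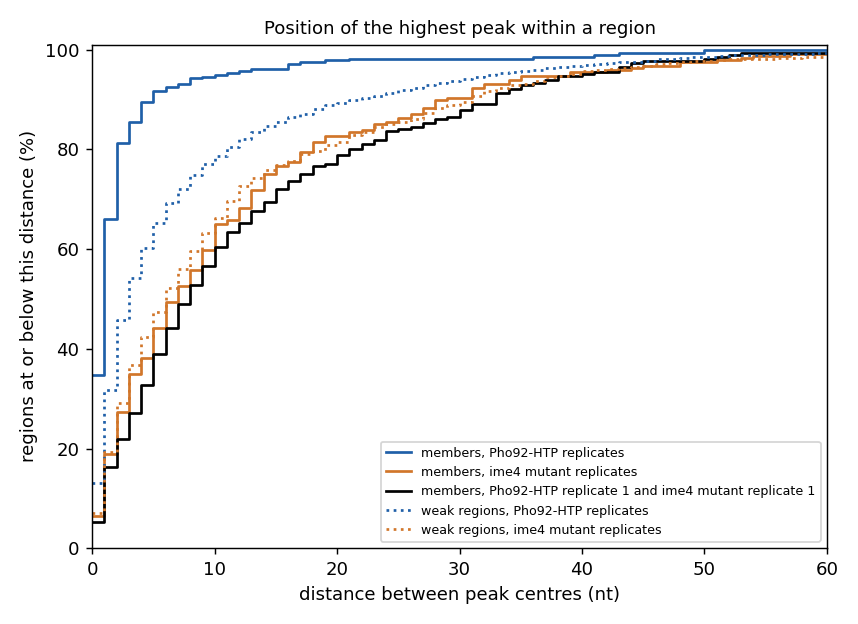
Cumulative share of regions (%) by the distance in nt between the centres of their highest peaks in 2 libraries. Pho92-HTP replicates lay within 2 nt at 81.2% of residual sites, mutant replicates at 27.3%, and Pho92-HTP and mutant replicates 1 at 21.9%.

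In a small group, picked by that agreement, the centres agreed in all 4 libraries. How often the same holds over the tested regions was not computed. At 14 of the 249 sites listed in all 4 libraries (5.62%), all 4 centres lay within 2 nt, among them the sites with the highest mutant scores at NCSL01000030.1 131516 and NCSL01000006.1 64662. The strongest of the 14 in Pho92-HTP was NCSL01000021.1 at 146993 to 147032 on the minus strand, with 270 and 318 in Pho92-HTP, while the mutant had 0.331 and 0.309, or 3.42% of the height. NCSL01000042.1 at 40490 to 40522 on the minus strand had 17.4 and 36.3 in Pho92-HTP, while the mutant had 0.158 and 0.0874. No untagged peak was listed at the latter, and 3.79e-05 and 0.000593 were listed without UV.

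Other sites had a reproducible mutant peak beside the Pho92-HTP summit. Of 200 sites listed in both mutant libraries with Pho92-HTP centres within 2 nt of each other, 56 also had mutant centres within 2 nt of each other. At 21 of the 56 the mean mutant centre lay within 2 nt of the mean Pho92-HTP centre, and at 20 it lay more than 5 nt away. At NCSL01000017.1, 242899 to 242956 on the minus strand, the Pho92-HTP centres were both at 242915 and the mutant centres at 242939 and 242940. Scores there were 11.6 and 7.21 in Pho92-HTP, while the mutant had 0.705 and 0.621. At NCSL01000032.1, 50971 to 51022 on the plus strand, the centres were at 51007 in both Pho92-HTP libraries and at 50987 in both mutant libraries. The longest such distances, 94 and 93 nt, were at NCSL01000004.1 from 83777 to 83918 on the plus strand. Separate listed peaks were merged into that region in each irradiated Pho92-HTP library. At these 20 sites the highest mutant peak thus lay beside the Pho92-HTP summit within the merged region. At lost sites, mutant centres lay within 2 nt of each other at 24 of 201 (11.9%). Counts like the 56, 21 and 20 were not made over the lost sites or the tested regions. Whether the agreement at the 20 sites goes beyond that of weak peaks was therefore not tested. Some of the distances, such as 6 nt in both mutant libraries at NCSL01000005.1 207785, were below the median of 7 nt between mutant replicates.

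The surroundings of the sites were measured from the other same-strand peaks listed within 500 nt. A residual site had a median of 7 to 8 such peaks in each of the 4 irradiated Pho92-HTP libraries. Their median score was 0.0306 and 0.0322 in Pho92-HTP, while the mutant had 0.0132 and 0.0107. Around lost sites the values were 0.00221 and 0.00502 in Pho92-HTP, and over the 961 tested regions 0.0101 and 0.0174. In the mutant they were 0.00140 and 0.00120 around lost sites and 0.00583 and 0.00446 over the tested regions. Kept sites, of which 143 to 157 of 195 had such peaks, had 0.0160 and 0.0312 in Pho92-HTP. Their mutant values, 0.0203 and 0.0139, were above those of residual sites. In Pho92-HTP the residual site was the highest peak within 500 nt at 192 of 277 sites (69.3%) in each replicate, against 72.6% and 72.8% of the tested regions. In the mutant this held at 90 sites (32.5%) and 108 sites (39.0%), against 39.8% and 42.2% of the tested regions. A median site rose to 2.53 and 2.36 times the height of the highest surrounding peak in Pho92-HTP, against 3.94 and 3.68 times over the tested regions. In the mutant the ratios were 0.712 and 0.755, against 0.631 and 0.681.

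The sites were chosen to be lower in the mutant and the surrounding peaks were not, so a lower share kept at the site follows from the rule. The median height of the surrounding peaks in the mutant was 63.4% of that in Pho92-HTP (quartiles 43.7% and 93.9%). This median was taken over the peaks that each library listed, which need not be the same peaks. A site with no listed peak counted as height 0, so the shares of site and surroundings are unlike measures. The share was lower at the site than around it for 262 of the 277 sites. The same held for 711 of 914 tested regions that could be measured, 329 of 329 lost sites and 65 of 158 kept sites. Surroundings of lost sites kept 58.0% and those of kept sites 76.4%, with 67.8% over the tested regions. Across residual sites, Spearman's rho between the score and the median surrounding score was 0.478 and 0.385 in the mutant (n = 277), and 0.0434 (n = 277) and -0.00978 (n = 275) in Pho92-HTP, each within 1 library and over points that share its depth. Pearson's r on log2 values was lower in the mutant, at 0.33 and 0.16, and was 0.12 and 0.05 in Pho92-HTP. In the mutant, rho was 0.0928 and 0.0571 for lost sites and -0.206 and -0.298 for kept sites. The rule limits the scores differently in each group and class, and the differences were not tested.

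**Figure D4:**
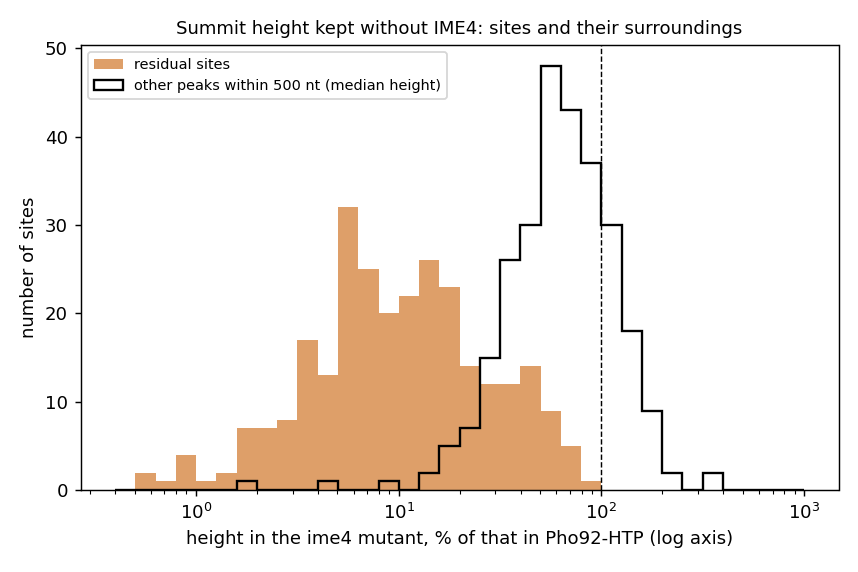
Number of residual sites by the height in the ime4 mutant as a percentage of that in Pho92-HTP (log axis), for the site itself (filled) and for the median of other same-strand peaks that each library listed within 500 nt (outline). Sites centre on 9.96% and their surroundings on 63.4%, with the dashed line at equal height.

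Most residual sites stood alone. Within 500 nt on the same strand, 104 of 277 (37.5%) had another residual site, in 40 groups, and 173 had none. Of lost sites 12.1% had another lost site within that distance, and of kept sites 25.1% another kept site. These shares depend on how many sites each class holds and were not tested. A lost site was near 31 residual sites (11.2%) and a kept site near 29 (10.5%).

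The longest series was on the plus strand of NCSL01000032.1 from 50971 to 52837, with 10 residual sites in 1866 nt. Pho92-HTP scores there ran from 1.61 to 959 in replicate 1 and from 1.05 to 211 in replicate 2. Mutant scores ran from 0.102 to 0.689 in replicate 1, and from 0.160 to 0.861 at the 8 sites listed in replicate 2. The strongest site, 51145 to 51200, had 959 and 211 in Pho92-HTP, while the mutant had only 0.102 and 0.321, and kept 1.87%. The site that kept most, 52101 to 52164, had 1.61 and 1.58 in Pho92-HTP, while the mutant had 0.540 and 0.659, and kept 58.2%. The rule caps the mutant score at 0.9, so the narrower mutant range is not a finding.

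A kept site lay inside the same series, at 51358 to 51450, with 59.2 and 34.7 in Pho92-HTP, while the mutant had 4.90 and 1.96. The 18 neighbouring regions in no class, up to 500 nt beyond the ends, reached 0.721 and 1.01 in the mutant, both at 1 region. Where listed, at 13 regions in each mutant library, their medians were 0.135 and 0.222. The residual sites among them had 0.535 and 0.414 where listed, at 10 and 8 sites. No UV scores in this window stayed at or below 0.0436.

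**Figure D5:**
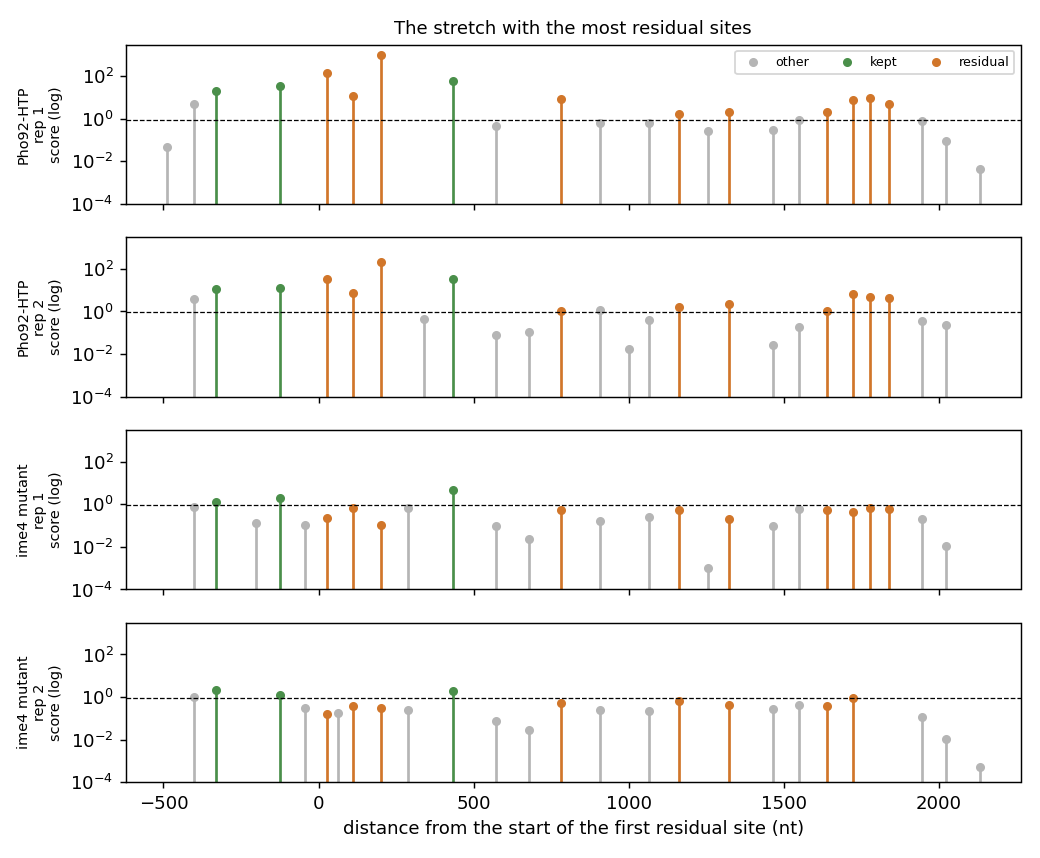
Scores (log axes) of residual, kept and other regions along the plus strand of NCSL01000032.1 in the 4 irradiated Pho92-HTP libraries, by distance in nt from the start of the first of the 10 residual sites. Residual sites reach 959 and 211 in Pho92-HTP, and where listed without IME4 they stay within 0.102 to 0.861, below the dashed line at 0.9.

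Shorter series also joined strong and weak sites. On the plus strand of NCSL01000022.1, 6 residual sites between 140564 and 141562 had Pho92-HTP scores of 1.21 to 782 in replicate 1 and 0.927 to 816 in replicate 2. Their mutant scores were 0 to 0.613 and 0.0552 to 0.350. A further 5 sites lay between 38475 and 39565 on the plus strand of NCSL01000032.1, with 1.12 to 328 in Pho92-HTP replicate 1 and mutant scores of 0 to 0.570 and 0.00108 to 0.184. No untagged peak was listed at any of these 5.

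The control libraries, which the rule did not use, had small peaks at many of the residual sites. A peak was listed at 115 and 97 sites without UV (41.5% and 35.02%) and at 96 and 75 in the untagged cells (34.7% and 27.1%). Over the 961 tested regions the shares were 47.5%, 42.8%, 42.1% and 37.8%. Listed control peaks at the sites had medians of 3 to 3.88 read equivalents, and the highest scores were 0.00739 and 0.00368 without UV and 0.0223 and 0.0197 in the untagged cells. At 70 sites (25.3%) no control library had a peak, at 207 (74.7%) at least 1 had, and at 12 (4.33%) all 4 had. The corresponding shares were 28.1%, 71.9% and 18.9% of tested regions, and at least 1 control had a peak at 43.6% of lost sites. The no UV sheets carry the scaling factors that the deposited normalization table lists for the untagged cells, and the reverse, and the sheets' own scores were used.

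Both Pho92-HTP values lay above all 4 control values at all 277 sites, as they did at 93.7% of the tested regions. The rule set this for the sites, since it asked for more than 0.9 in both and the highest control value at any site was 0.0223. Both mutant values lay above both no UV values at 249 sites (89.9%), where the share over tested regions was 79.9%. They lay above both untagged values at 248 sites (89.5%), against 81.1%. The rule sets much of this too, since it asks for a mutant score of at least 0.02, a level that only 1 control library reached at any site. Of the 29 sites that did not stand above all controls, 28 lacked a peak in 1 mutant library. The other, NCSL01000044.1 at 58098 to 58144 on the plus strand, had 0.00680 and 0.0287 in the mutant and 0.0223 in untagged replicate 1.

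The controls were also compared with each other, since the one group has the tag and no UV, and the other UV and no tag. Both no UV values lay above both untagged values at 27 sites (9.75%, against 20.1% of tested regions), and the reverse held at 26 (9.39%, against 8.32%). Limma was run on log2(score + 2.28e-05) over 964 regions and all 8 libraries. By limma, 3 of the 277 sites (1.08%) passed an adjusted p of 0.05, against 6.33% of all regions tested. The spread in this fit was shared with the 4 libraries that the rule used, so the SE and p of a site are not free of the rule. On the 4 control libraries alone, limma called no site and 32 of the 964 regions. Higher without UV were 2 of the 277 sites, against 47 of the 964 regions (4.88%). Lower was 1 of the 277, against 14 of the 964 (1.45%). At an unadjusted limma p under 0.05 there were 20 of the 277 sites, against 162 of the 964 regions. The median log2 difference between no UV and untagged was 0 over the sites and over all regions, with 70 sites at 0 because no control had a peak. The median SE at the sites was 1.28, so small differences were not detectable with this spread. Large ones can be missed too, since only 42% of simulated regions given a log2 difference of 4 were called.

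Of the 3, the largest difference was at NCSL01000039.1, 54194 to 54234 on the minus strand, where no peak was listed without UV and the untagged cells had 0.00607 and 0.0197, or 15.6 and 33.5 read equivalents. The site was lower without UV by limma (log2 difference -8.91, SE 0.84, adjusted p = 0.00206). It is also the site with 79.4% of its height kept in the mutant, at 0.866 and 0.553, above both untagged values. The call was lost in 1 of 11 alternative fits, that on the control libraries alone (adjusted p = 0.0857).

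Higher without UV were 2 sites. At NCSL01000017.1, 242649 to 242704 on the minus strand, no UV had 0.00167 and 0.000552, or 13.3 and 6.39 read equivalents, and the untagged cells had no peak (log2 difference 5.44, SE 0.89, limma adjusted p = 0.0198). Pho92-HTP had 4.91 and 11.9 there and the mutant 0.1004 and 0.0611. NCSL01000032.1, 51064 to 51100 on the plus strand, lies in the series of 10 and had 0.000486 and 0.000425 without UV against no peak and 1.82e-05 untagged (log2 difference 3.96, SE 0.76, limma adjusted p = 0.0393). Both calls depended on the settings. The first was lost in 7 of 12 alternative fits, among them those without no UV replicate 1 (adjusted p = 0.0704), untagged replicate 1 (0.0540) and untagged replicate 2 (0.0615). The second was lost in 9 of 12, among them those without no UV replicate 1 (adjusted p = 0.118), no UV replicate 2 (0.106) and untagged replicate 1 (0.0715). Where both libraries of a group have no listed peak, that group adds no spread, so its SE and p depend on what the lists hold.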

How the data were processed

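The authors deposited 1 peak list per library, called per library and not pooled, with 1 table of normalization factors. Per the submitters' processing notes, cutadapt and Bowtie2 2.4.1 were used, with ASM294v2, a fission yeast build. How peaks were called is not given in the sources used, nor whether coordinates count from 0 or 1. The deposited h2w score was, per the file headers, multiplied by a ratio that compares the library's spike-in score with that of the first Pho92-HTP library. The factors were 1 and 5.92 for Pho92-HTP, 1.73 and 1.01 for the ime4 mutant, 0.428 and 0.746 for no UV and 1.13 and 0.771 for untagged cells.

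Peaks were merged into regions, and heights were computed from score and width. For peaks 32 nt wide, the height came within 0.01 of whole reads for 63.3% to 92.4%, depending on the library. A value of 0 means that no peak was listed. Height kept is the mean scaled height in the mutant over that in Pho92-HTP. Residual sites and tests were chosen with earlier results of these data known, and no test was made between groups that the rule used. No UV was compared with untagged by limma 3.58.1 in R 4.3.3, with a trend of variance on mean, on log2(score + 2.28e-05), the pseudocount being percentile 5 of all scores, over regions above 0.9 in at least 2 of 8 libraries, with Benjamini-Hochberg adjustment. The procedure was tested on simulated data. Sites named are the 8 with the highest mutant mean, 6 each with the most and least height kept, 6 with the highest Pho92-HTP mean, the 2 on either side of each limit, those called between controls and the 4 highest in each control. From these the text names a part. Sites given as examples of peak position and of series were chosen after their values were seen. Alternatives changed the scaling, limits, merging, pseudocount, filter, libraries and replicate block. Tables were made in Python 3.11.15 with numpy 2.4.6, pandas 2.3.3 and scipy 1.17.1, and figures with matplotlib 3.10.9.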

Additional observations from a re-analysis of the deposited data

How the results depend on the processing

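Membership depended on the scaling. Without spike-in scaling 128 regions met the rule, 126 of them among the 277, and asking for 0.02 in both mutant libraries left 181. The other settings gave 198 to 356, and leaving out 1 library 232 to 355. The counts of sites with mutant values above no UV (249) and above untagged (248) ranged from 195 to 265 and from 210 to 264. The highest counts came from leaving out 1 mutant library, an easier condition, since only 1 mutant value must then lie above the controls. Shares over the tested regions, 79.9% and 81.1% in the main setting, were not computed for these settings. The median height kept, 9.96%, was 12.6% without scaling, 14.1% with a trimmed mean of log ratios, 15.6% with both mutant libraries at 0.02, 10.3% when peaks up to 50 nt apart were merged, 11.5% with the highest peak within 50 nt, and 9.97% to 10.8% when 1 library was left out. The 3 limma calls between no UV and untagged, against 61 over all 964 regions, became 10 with the table's factors (108 over all). Without scaling 2 of 136 sites tested were called (83 of 586 regions), and with the trimmed mean 26 of 252 (159 of 985). A pseudocount 10 times larger and smaller gave 1 and 14 (57 and 87 of 964 regions), and no filter 1 (17 of 105079). The 3 calls became 15 of 356 with merging at 50 nt (85 of 837 regions). They became 0 by limma on the 4 controls alone (32 of 964 regions), with 9 sites and 112 regions at an unadjusted p under 0.05. They became 5 and 6 without no UV replicates 1 and 2 (53 and 62 of 964 regions). Without untagged replicates 1 and 2 they became 10 and 12 (97 and 81 of 964 regions). With the replicate number as a block there was 1 call, against 50 over the 964 regions. The numbers pair nothing in the labels, and deviations of same-numbered libraries correlated at -0.038 to 0.063. Of the calls, 2 were higher and 1 lower without UV. The balance turned to 2 and 8 without untagged replicate 1, 2 and 10 without untagged replicate 2, and 2 and 4 without no UV replicate 2. Over all regions the same fits had 68 and 29, 50 and 31, and 40 and 22. It did not turn without no UV replicate 1 (4 and 1), with the table's factors (8 and 2) or without scaling (2 and 0). Nor did it with the trimmed mean (14 and 12), the smaller pseudocount (8 and 6) or merging (9 and 6). The single calls with the larger pseudocount, no filter and the block were lower. The 3 named sites kept their direction in the alternative fits that tested them. Control peaks of about 3 read equivalents limit what the comparison of controls can show.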

Other observations

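Peaks on the opposite strand that touched a residual site were listed for 18 and 8 of the 277 sites in the Pho92-HTP libraries, for 12 and 7 in the ime4 mutant, for 0 and 1 without UV and for none in the untagged cells. Over the 961 tested regions the numbers were 43 and 19 in Pho92-HTP, then 29 and 28 without IME4. Within 50 nt on the same strand, a higher peak than the site's own was listed for 32 and 30 sites in Pho92-HTP and for 78 and 86 in the mutant, against 108, 110, 293 and 282 of the 961. The site was the highest peak within 500 nt in both Pho92-HTP libraries at 179 sites (64.6%) and in both mutant libraries at 60 (21.7%), against 68.8% and 31.5% of tested regions. At 68 sites, and at 265 of the 961 tested regions, it was the highest in both Pho92-HTP libraries and in neither mutant library.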
